A study of Mus musculus with 8 samples.

Results

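Macrophages live inside the pancreatic islets, the clusters of hormone cells that release insulin and glucagon, and 34 genes that mark macrophages and other myeloid cells were followed here through 8 RNA libraries of mouse islets. The members were named by symbol, from genes known to mark these cells, and each was found in the deposited count tables by its Ensembl identifier. They are 34 of the 54532 genes in those tables. Of the 34, 33 had enough reads to be tested; Cd163, a scavenger receptor for haemoglobin bound to haptoglobin, did not.

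Islet macrophages are resident phagocytes that sit beside capillaries and beta cells. Their survival depends on the receptor Csf1r and its ligands, and their identity on the transcription factor Spi1, also called PU.1, which binds many myeloid promoters. They take up debris, lipid and hormone granules, carry the integrin Itgax (CD11c), present antigen and make complement C1q, and they sense microbial and cytosolic nucleic acid through several receptors.

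The islets came from wild-type and Sting-/- mice aged 25 to 30 weeks, were picked by hand after collagenase digestion and kept in culture overnight. They were then held for 3 h with the solvent DMSO or with DMXAA at 50 µg/mL, a small molecule that activates mouse STING, the adaptor that links cytosolic DNA sensing to interferon genes. Wild-type and Sting-/- islets were each divided into a control group, with DMSO, and a treated group, with DMXAA, which makes 4 groups of 2 libraries. Whole islets were used, so every gene was read in a mixture of hormone, endothelial, stromal and immune cells, and fewer macrophages cannot be told apart from less RNA of a gene in each macrophage. The series title names infiltrating macrophages and obesity, but the diet, the sex and the strain of the mice, and whether a group was drawn from different mice, are not known from the labels.

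The libraries held 15624020 to 19601850 counts, and the 34 members together took 0.0204% to 0.0378% of them. Sting1, the gene named in the knockout label, was read at 39 and 41 counts in control wild-type islets, 23 and 39 in treated wild-type islets, 48 and 19 in control and 35 and 27 in treated islets of the knockout label. It was not lower under the knockout label, with a log2 fold change of 0.03 under DMSO (SE 0.47, adjusted p = 0.984). Those libraries are called knockout-labelled below, and each direction between genotypes rests on that label. Counts over a whole gene cannot tell whether a deletion of part of it is present. A list of 10 interferon-stimulated genes separated the labels under DMXAA: all 10 rose in wild-type islets, from a summed 117 and 123 to 3757 and 3871 CPM (reads of a gene relative to the scaled library size), and 0 of 10 passed the test in knockout-labelled islets, with 2 of 10 at an unadjusted p under 0.05.

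Of lists for other myeloid and mast cells, 2 of 11 neutrophil, 1 of 6 mast cell and 2 of 8 dendritic cell genes had enough reads to be tested. A neutrophil list of 11 genes summed to 1.21 to 2.10 CPM in every library, with Ly6g, Retnlg and Elane at 0 counts, and a mast cell list of 6 genes was carried almost wholly by Kit, at 6.17 to 13.2 CPM. A dendritic cell list of 8 genes summed to 3.45 to 8.46 CPM, with Cd209a at 0. B and T cell genes stood apart: a list of 18 lymphocyte genes, of which Ncr1 was at 0, summed to 94.6 and 76.8 CPM in control knockout-labelled islets, 29.7 in wild-type DMSO replicate 1, and 3.98 to 12.04 CPM in the other 5 libraries. Acinar enzyme genes summed to 7278 CPM in wild-type DMSO replicate 1, to between 1471 and 3126 CPM in the other wild-type and the control knockout-labelled islets, and to 440 and 385 CPM in treated knockout-labelled islets.

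Per kilobase of exon, the scale on which genes of different length can be compared, the highest members over all 8 libraries were C1qa at 23.1, Lgmn at 20.8, Ctss at 20.5, Lyz2 at 14.3 and Cd68 at 13.8 CPM per kb. They were followed by C1qb at 10.3, Fcer1g at 8.07, Mpeg1 at 6.08, Tyrobp at 4.80 and Laptm5 at 4.31 CPM per kb. The order changed by group: in control wild-type islets Ctss (19.9 CPM per kb), Lyz2 (19.1) and Lgmn (18.9) stood above C1qa (14.4), and in treated wild-type islets Lyz2 was at 4.60 CPM per kb. C1qa had the highest group mean in the other 3 groups, at 19.9 CPM per kb in treated wild-type, 25.8 in control knockout-labelled and 32.2 in treated knockout-labelled islets. Some of these places rested on 1 library. C1qa was at 18.9 and 48.2 CPM in treated knockout-labelled islets, and in replicate 1 there it stood below Lgmn and Ctss per kilobase. Lyz2 was at 38.1 and 12.1 CPM in control wild-type islets, and in replicate 2 there it stood below C1qa per kilobase. Cx3cr1, at 0.145, and Itgam and Mrc1, each at 0.114 CPM per kb, were at the bottom, and Cd163 had 0 to 3 counts in a library. The integrin Itgax stood at 1.29 CPM per kb, above its paralogue Itgam.

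The summed level of the members was 312 and 226 CPM in control wild-type islets, 205 and 214 CPM in treated wild-type islets, 292 and 290 CPM in control knockout-labelled islets and 285 and 434 CPM in treated knockout-labelled islets. The group means were 269 ± 61.2, 209 ± 6.47, 291 ± 0.974 and 359 ± 105 CPM (SD, n = 2). The wild-type DMXAA libraries were the lowest pair, and they did not overlap with any other group. Knockout-labelled DMXAA replicate 2 was the highest library for 15 of the 34 members and wild-type DMSO replicate 1 for 6. Wild-type DMXAA replicates 1 and 2 were the lowest for 12 and 10. The matching shares over all genes were not counted, so these counts are not read as a trait of the members. In both DMSO-treated wild-type and DMXAA-treated knockout-labelled islets the 2 replicates were far apart.

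**Figure D1:**
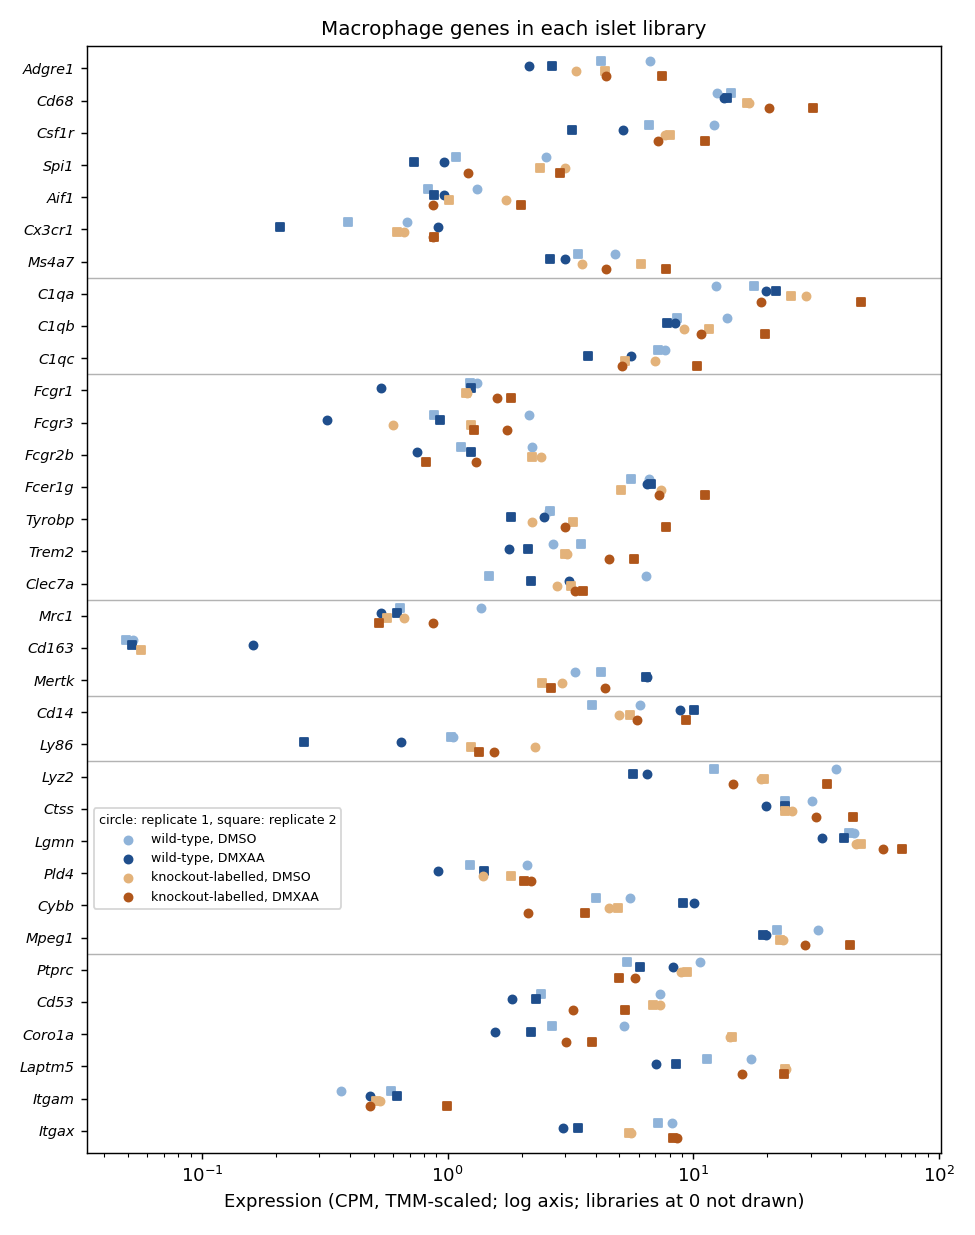
Expression of each of the 34 macrophage genes in each library, in CPM on a log axis; colours mark the 4 groups, circles replicate 1 and squares replicate 2, and lines separate the functional classes. Dark blue points, wild-type islets with DMXAA, lie at the left of most rows, and lie at the right for Cybb and Mertk.

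DMXAA in wild-type islets changed 1 of the 33 tested members past an adjusted p of 0.05 (edgeR quasi-likelihood test, adjusted over all 17055 genes), against 1.48% of all genes. That member was Itgax, which fell. Unadjusted p-values were under 0.05 for 10 members, against 11.9% of all genes. Of the 33, 25 had a negative log2 fold change, against 50.1% of all genes, and the median was −0.51 for the members and 0.00 for all genes. The members' median was −0.16 without wild-type DMSO replicate 1, where 24 of 33 were negative, and −0.23 with the lymphocyte sum as an added term, where 22 were. In 17 members both DMXAA libraries lay under both DMSO libraries, against 23.9% of all genes, and in 4 both lay above, against 22.5%.

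In knockout-labelled islets DMXAA also changed 1 of 33 members, Coro1a, which fell, against 0.375% of all genes. Unadjusted p-values were under 0.05 for 11 members, against 7.3% of all genes. Here 8 of 33 members had a negative log2 fold change, against 50.1% of all genes, and the median of the members was 0.39. Without knockout-labelled DMXAA replicate 2, 15 of 33 were negative and the median was 0.15; without replicate 1 of that group it was 0.59, and with the lymphocyte sum as an added term 0.95. Both DMXAA libraries lay above both DMSO libraries in 13 members, against 18.1% of all genes, and below in 6, against 17.7%.

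The difference between these effects, knockout-labelled minus wild-type, passed the test for 1 of 33 members, Itgax, against 1.2% of all genes. Its unadjusted p was under 0.05 for 11 members, against 8.71% of all genes. Under DMSO, the labels differed in 1 of 33 members, Coro1a, against 0.223% of all genes, and 2 members had an unadjusted p under 0.05, against 12.3%.

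With DMXAA present, the labels differed in 6 of 33 members, against 2.39% of all genes. Of these, 5 (Itgax, Laptm5, Lgmn, Cd68 and Trem2) were higher under the knockout label, against 1.02% of all genes, and 1 (Cybb) was lower, against 1.37%. Unadjusted p-values were under 0.05 for 18 members, against 13.0% of all genes, and 4 of 33 had a negative log2 fold change, against 45.7%. The median was 0.87 for the members and 0.04 for all genes, and 0.57 for the members without knockout-labelled DMXAA replicate 2. In 22 members both knockout-labelled libraries lay above both wild-type ones, against 23.3% of all genes, and in 3 both lay below, against 21.0%. In the same contrast 10 of 16 endothelial genes were also higher under the knockout label, with a summed level of 754 and 782 CPM in wild-type and 1488 and 1360 CPM in knockout-labelled islets; its part in the macrophage values was not tested. The contrasts share libraries: the wild-type DMXAA libraries enter the wild-type effect, the difference between effects and the last contrast.

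**Figure D2:**
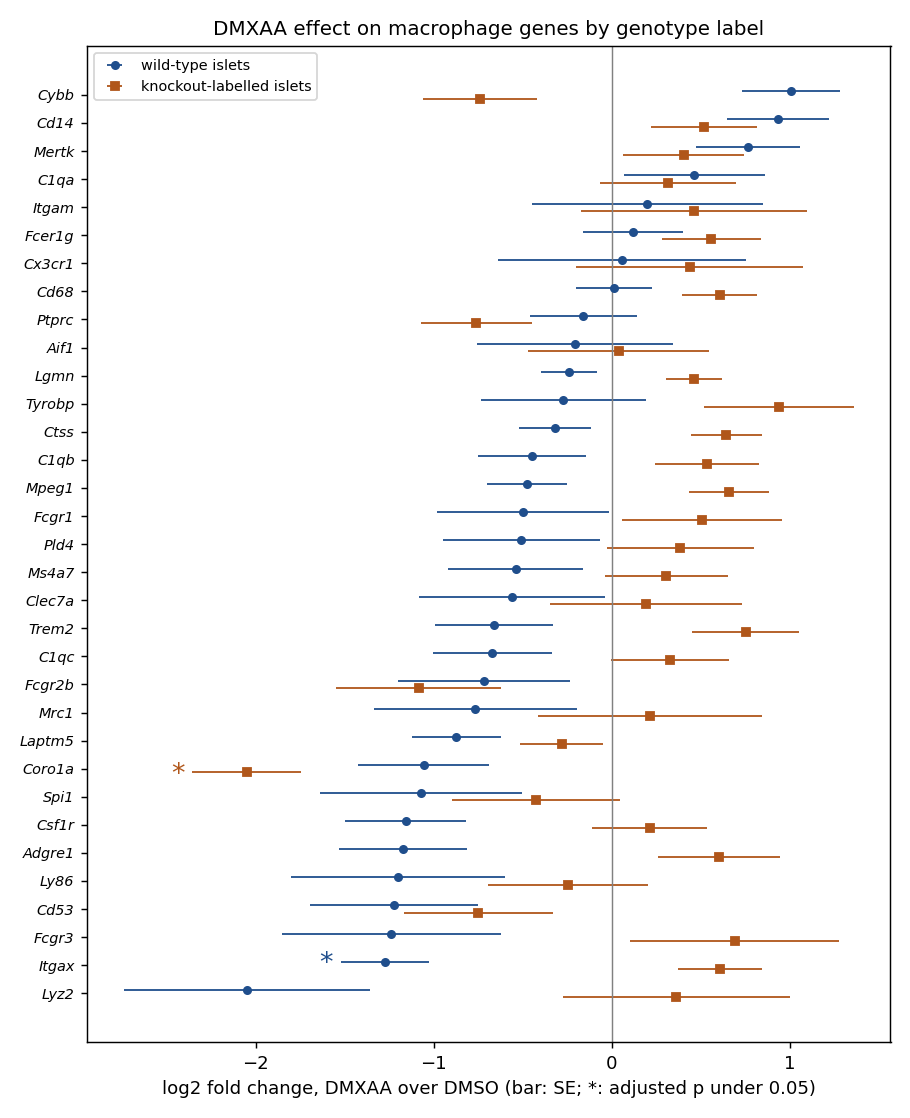
The log2 fold change of each tested member, DMXAA over DMSO, in wild-type (blue) and knockout-labelled (orange) islets, with bars of 1 SE from the edgeR fit and an asterisk where the adjusted p was under 0.05. The wild-type values run from −2.05 for Lyz2 to 1.01 for Cybb; the asterisks stand at Itgax in wild-type and Coro1a in knockout-labelled islets.

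Itgax, the integrin chain CD11c of islet macrophages and dendritic cells, carried the most calls. It lies on chr7:128129547-128150657 on the plus strand (mm10, GENCODE M21). Its level was 8.20 and 7.17 CPM in control wild-type islets, 2.96 and 3.38 CPM in treated wild-type islets, 5.60 and 5.49 CPM in control knockout-labelled islets and 8.61 and 8.30 CPM in treated knockout-labelled islets. The 2 wild-type DMXAA libraries were the lowest of the 8, and no 2 groups overlapped.

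Itgax fell by 1.27 on the log2 scale with DMXAA in wild-type islets (SE 0.25, adjusted p = 0.0166) and had a log2 fold change of 0.61 in knockout-labelled islets (SE 0.23, adjusted p = 0.555). The difference of the effects was 1.89 (SE 0.34, adjusted p = 0.0126). Between labels under DMXAA it was higher by 1.41 under the knockout label (SE 0.25, adjusted p = 0.00569). The wild-type call was lost on leaving out wild-type DMSO replicate 1 or wild-type DMXAA replicate 1 or 2. It was also lost in a fit of only the 4 wild-type libraries and with the lymphocyte sum as an added term. The difference of effects was lost on leaving out wild-type DMXAA replicate 1 or knockout-labelled DMSO replicate 1 or 2. The last call was lost without wild-type DMXAA replicate 1. The log2 values of these called contrasts stayed between 1.16 and 2.03 in size.

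Cybb, which encodes the catalytic subunit of the phagocyte NADPH oxidase that makes superoxide, differed in the opposite direction. It lies on chrX:9435252-9487771 on the minus strand. The gene was read at 5.52 and 4.03 CPM in control wild-type islets, 10.1 and 9.10 CPM in treated wild-type islets, 4.53 and 4.92 CPM in control knockout-labelled islets and 2.13 and 3.62 CPM in treated knockout-labelled islets. The wild-type DMXAA libraries were the highest of the 8 and the knockout-labelled DMXAA libraries the lowest. Under DMXAA Cybb was lower under the knockout label by a log2 fold change of −1.75 (SE 0.30, adjusted p = 0.00442), and this call was kept in all 20 alternatives, at an adjusted p of at most 0.0457. Within wild-type islets its log2 fold change of 1.01 did not pass the test (SE 0.27, adjusted p = 0.135), nor did −0.74 in knockout-labelled islets (SE 0.32, adjusted p = 0.636) or the difference of −1.74 (SE 0.42, adjusted p = 0.0779).

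Set against Mpeg1, a member whose level is taken here as a plain reference within each library, Cybb stood at a ratio of CPM of 0.171 and 0.185 in control wild-type islets, 0.510 and 0.476 in treated wild-type islets, 0.195 and 0.219 in control knockout-labelled islets and 0.0746 and 0.0831 in treated knockout-labelled islets. Replicates of a group were close to each other on this scale, and no 2 groups overlapped. The same ratio for Itgax was 0.254 and 0.329, 0.150 and 0.177, 0.241 and 0.244, and 0.302 and 0.190 in the same order. This reference was picked after the values were seen, so the ratios are descriptions. Mpeg1 itself had a log2 fold change of 0.89 between labels under DMXAA (edgeR, adjusted p = 0.0585) and −0.48 with DMXAA in wild-type islets (adjusted p = 0.430). Both are opposite in sign to those of Cybb, so dividing by Mpeg1 widens the differences of Cybb between these groups.

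**Figure D3:**
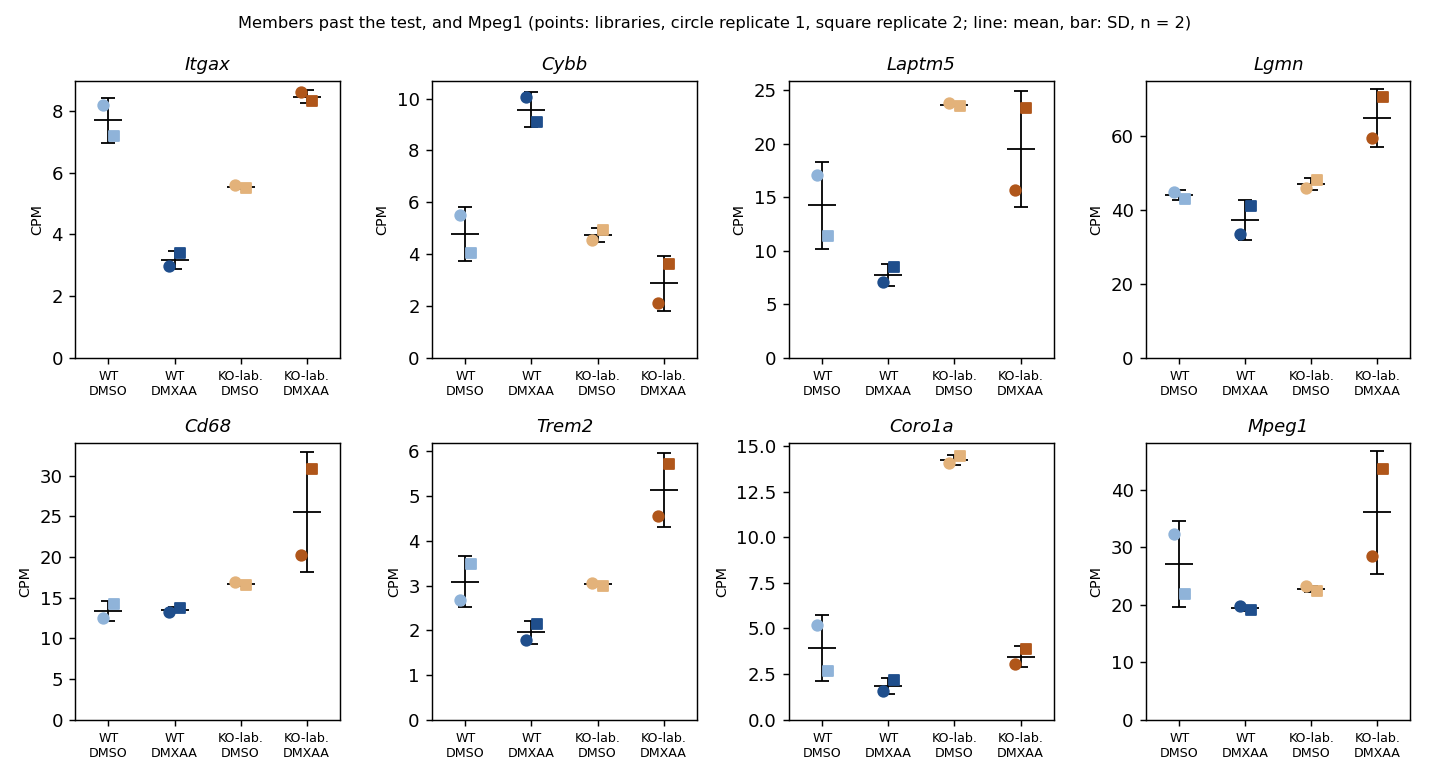
Expression in CPM of the 7 members that passed the test in any contrast, and of Mpeg1, in each library (circle replicate 1, square replicate 2), with the group mean as a line and bars of 1 SD (n = 2). Itgax is lowest and Cybb highest in wild-type DMXAA libraries, and Coro1a stands at 14.1 and 14.4 CPM in control knockout-labelled islets.

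The promoters of Itgax, Cybb, Laptm5 and Trem2 are shown because these had the largest log2 differences, in size, of the 6 members called between labels under DMXAA, Cybb in one direction and the other 3 in the opposite one. Those of Lgmn and Cd68, with differences of 0.80 and 0.92, are not shown. Each window runs from 250 bases before to 50 after the RefSeq start (build GRCm38.p6), 5′ to 3′ along the gene. Capitals mark 2 searched motifs on either strand: the PU.1 core GAGGAA, and GAAA followed after 2 free bases by a further GAAA, the core of the interferon-stimulated response element (ISRE), which interferon regulatory factors bind. The windows are chr7:128129300-128129599 (plus) for Itgax, chrX:9469275-9469574 (minus) for Cybb, chr4:130913066-130913365 (plus) for Laptm5 and chr17:48346151-48346450 (plus) for Trem2. For Cybb the RefSeq start lies inside the GENCODE span given above, which begins at 9487771 on the minus strand. Its window and motif matches therefore belong to the RefSeq start and not to the start of that span.
Itgax: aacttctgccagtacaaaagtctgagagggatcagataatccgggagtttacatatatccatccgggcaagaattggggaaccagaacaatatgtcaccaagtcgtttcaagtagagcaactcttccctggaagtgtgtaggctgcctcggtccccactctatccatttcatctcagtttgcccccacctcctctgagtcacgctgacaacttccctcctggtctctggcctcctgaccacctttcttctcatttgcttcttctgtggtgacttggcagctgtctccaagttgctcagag
Cybb: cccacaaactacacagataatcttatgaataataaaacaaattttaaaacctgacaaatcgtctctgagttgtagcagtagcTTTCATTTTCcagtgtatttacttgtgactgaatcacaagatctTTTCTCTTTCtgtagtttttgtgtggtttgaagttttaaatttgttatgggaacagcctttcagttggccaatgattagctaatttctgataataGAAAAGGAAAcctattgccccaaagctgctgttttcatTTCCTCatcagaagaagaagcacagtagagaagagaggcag
Laptm5: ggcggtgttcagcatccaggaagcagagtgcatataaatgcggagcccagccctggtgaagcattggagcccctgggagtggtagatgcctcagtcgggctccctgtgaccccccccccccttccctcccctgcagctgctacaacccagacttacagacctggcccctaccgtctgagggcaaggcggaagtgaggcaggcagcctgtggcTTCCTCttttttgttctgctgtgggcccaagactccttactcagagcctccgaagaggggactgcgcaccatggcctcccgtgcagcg
Trem2: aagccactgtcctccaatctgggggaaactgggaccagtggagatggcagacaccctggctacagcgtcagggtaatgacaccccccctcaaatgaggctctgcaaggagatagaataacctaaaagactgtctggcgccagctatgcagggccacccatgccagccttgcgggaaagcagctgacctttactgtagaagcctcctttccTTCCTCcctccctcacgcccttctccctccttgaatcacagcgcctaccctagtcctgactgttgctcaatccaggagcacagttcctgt

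The Cybb window holds 3 matches to the ISRE core, which begin 168, 124 and 29 bases before the start, and 1 match to the PU.1 core just after the start. Laptm5 and Trem2 each hold 1 PU.1 core, which begins 38 and 40 bases before the start, and Itgax holds neither motif in this window. Of all 27025 genes with RefSeq windows of this length, 31.3% hold the PU.1 core in at least 1 window and 3.99% the ISRE core. Of the 34 members, 28 were matched to windows: 17 of 28 hold the PU.1 core in at least 1 window, and 3 of 28, Aif1, Ctss and Cybb, the ISRE core. A match is a run of letters and was not tested for binding.

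Among the genes used to identify macrophages, none passed the test for DMXAA in either genotype, and Cd68 alone differed between labels under DMXAA. Adgre1, the adhesion receptor recognised by the classical mouse macrophage antibody, was read at 6.67 and 4.23 CPM in control wild-type islets, 2.15 and 2.65 CPM in treated wild-type islets, 3.33 and 4.36 CPM in control knockout-labelled islets and 4.40 and 7.48 CPM in treated knockout-labelled islets. The wild-type DMXAA libraries were the lowest pair and did not overlap with the others. Its log2 fold change was −1.17 in wild-type islets (SE 0.36, adjusted p = 0.218) and 1.29 between labels under DMXAA (SE 0.36, adjusted p = 0.0944), neither past the test.

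Csf1r, the receptor that macrophages need to survive, was read at 12.1 and 6.59, 5.16 and 3.22, 7.66 and 8.03, and 7.16 and 11.2 CPM in the same order of groups. The wild-type DMXAA libraries were again the lowest, with a log2 fold change of −1.16 against DMSO (SE 0.34, adjusted p = 0.190) that did not pass the test. Its exons overlap Hmgxb3, on the opposite strand, which had 5068 counts over all libraries against 1119 for Csf1r. The strand setting of the counting is not known from the labels, so reads of the pair may not be fully separated.

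Cd68, a lysosomal membrane protein on chr11:69664213-69666153 (minus), was read at 12.5 and 14.3 CPM in control wild-type islets, 13.3 and 13.7 CPM in treated wild-type islets, 16.9 and 16.6 CPM in control knockout-labelled islets and 20.3 and 30.8 CPM in treated knockout-labelled islets. The wild-type groups overlapped and the knockout-labelled ones lay above them. It was higher under the knockout label with DMXAA by 0.92 on the log2 scale (SE 0.21, adjusted p = 0.0354). That call was lost on leaving out wild-type DMXAA replicate 1 or 2, or knockout-labelled DMSO replicate 1 or 2. Leaving out knockout-labelled DMXAA replicate 2 also lost it, at a log2 fold change of 0.58, as did leaving out both this library and wild-type DMSO replicate 1. It was lost too in limma-voom (adjusted p = 0.0594), in a fit of only the 4 DMXAA libraries and with the lymphocyte sum as an added term.

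Spi1, which encodes PU.1, was read at 0.728 to 3.00 CPM, Aif1, the actin-binding protein IBA1, at 0.835 to 1.99 CPM, and Cx3cr1, the fractalkine receptor, at 0.208 to 0.914 CPM. Ms4a7, a membrane protein of tissue macrophages, was read at 2.60 to 7.77 CPM. None of these 4 genes passed the test in any contrast. For Spi1 and Ms4a7 the wild-type DMXAA libraries were the 2 lowest of the 8.

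The 3 chains of complement C1q, which opsonises debris and immune complexes, did not pass the test in any contrast. They lie side by side on chr4 between positions 136880129 and 136898803. C1qa was read at 12.3 and 17.7 CPM in control wild-type islets, 19.8 and 21.6 CPM in treated wild-type islets, 28.8 and 24.9 CPM in control knockout-labelled islets and 18.9 and 48.2 CPM in treated knockout-labelled islets. Knockout-labelled DMXAA replicate 2 was far above its own replicate. C1qb ran from 7.85 to 19.6 CPM and C1qc from 3.74 to 10.3 CPM, each highest in that same library. The log2 fold changes with DMXAA in wild-type islets were 0.46 for C1qa (SE 0.40, adjusted p = 0.661), −0.45 for C1qb (SE 0.30, adjusted p = 0.561) and −0.67 for C1qc (SE 0.33, adjusted p = 0.445). On the scale of CPM per kb, the ratio of C1qa to C1qb ran from 0.946 in wild-type DMSO replicate 1 to 3.30 in knockout-labelled DMSO replicate 1, so the chains of 1 protein were not read in a fixed proportion.

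Fc receptors and receptors that signal through ITAM adaptors, which carry the phosphorylated motif that recruits the kinase Syk, gave 1 call. Trem2, a receptor for lipids and apoptotic cells that signals through Tyrobp, was read at 2.68 and 3.49 CPM in control wild-type islets, 1.77 and 2.13 CPM in treated wild-type islets, 3.06 and 3.00 CPM in control knockout-labelled islets and 4.55 and 5.73 CPM in treated knockout-labelled islets. The wild-type DMXAA pair was the lowest and the knockout-labelled DMXAA pair the highest. Under DMXAA it was higher under the knockout label by 1.38 on the log2 scale (SE 0.31, adjusted p = 0.0345). The call was lost on leaving out wild-type DMXAA replicate 1 (adjusted p = 0.336) or 2 (0.143), knockout-labelled DMSO replicate 1 (0.0811) or 2 (0.0817), or knockout-labelled DMXAA replicate 2 (0.193), and in limma-voom (0.0543).

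Its adaptor Tyrobp (DAP12) was read at 2.57 and 2.60, 2.47 and 1.82, 2.20 and 3.22, and 3.00 and 7.72 CPM in the same order. Only the last library stood out, and the log2 fold change between labels under DMXAA was 1.29 (SE 0.43, adjusted p = 0.178). Fcer1g, the common gamma chain of Fc receptors, was read at 5.09 to 11.2 CPM and was also highest in that library. The activating receptors Fcgr1 and Fcgr3 were read at 0.538 to 1.81 and 0.323 to 2.15 CPM and the inhibitory Fcgr2b at 0.753 to 2.40 CPM. Clec7a, the beta-glucan receptor dectin-1, was read at 1.47 to 6.41 CPM, with both ends of that range in the wild-type DMSO group. None of these 6 genes passed the test in any contrast.

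In the class of scavenger receptors, Mrc1 and Cd163 were low. Mrc1, the mannose receptor, was read at 0.526 to 1.37 CPM and Cd163 at 0 to 0.161 CPM. Mertk, a receptor tyrosine kinase that binds dying cells through its ligands Gas6 and Pros1, was read at 3.31 and 4.23 CPM in control wild-type islets, 6.45 and 6.39 CPM in treated wild-type islets, 2.93 and 2.43 CPM in control knockout-labelled islets and 4.35 and 2.63 CPM in treated knockout-labelled islets. The wild-type DMXAA pair was the highest, and the log2 fold change of 0.77 against DMSO did not pass the test (SE 0.29, adjusted p = 0.349). It also occurs outside macrophages.

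Cd14, the co-receptor for lipopolysaccharide, was read at 6.04 and 3.88 CPM in control wild-type islets, 8.82 and 10.1 CPM in treated wild-type islets, 4.996 and 5.54 CPM in control knockout-labelled islets and 5.90 and 9.35 CPM in treated knockout-labelled islets. In each genotype both DMXAA libraries lay above both DMSO libraries. The log2 fold changes were 0.93 (SE 0.29, adjusted p = 0.220) and 0.52 (SE 0.30, adjusted p = 0.787), neither past the test. Ly86, the partner of the receptor Cd180 in B cells and myeloid cells, was read at 0.260 to 2.26 CPM, lowest in the 2 wild-type DMXAA libraries.

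The genes of lysosomes and killing gave 2 of the calls, Cybb and Lgmn, both between labels under DMXAA. Lgmn, the asparaginyl endopeptidase legumain on chr12:102394084-102439813 (minus), was read at 44.9 and 43.0 CPM in control wild-type islets, 33.5 and 41.1 CPM in treated wild-type islets, 45.9 and 48.1 CPM in control knockout-labelled islets and 59.4 and 70.5 CPM in treated knockout-labelled islets. The knockout-labelled DMXAA pair was the highest and the wild-type DMXAA pair the lowest. The difference between the 2 was 0.80 on the log2 scale (SE 0.16, adjusted p = 0.0138). It was lost on leaving out wild-type DMXAA replicate 1 (adjusted p = 0.306), knockout-labelled DMSO replicate 2 (0.0508) or knockout-labelled DMXAA replicate 2 (0.105).

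Ctss, cathepsin S of the antigen-loading pathway, and Mpeg1, the pore-forming perforin-2, missed the threshold between labels under DMXAA, with log2 fold changes of 0.82 (SE 0.20, adjusted p = 0.0531) and 0.89 (SE 0.22, adjusted p = 0.0585). Ctss was read at 30.5 and 23.6, 19.7 and 23.7, 25.3 and 23.5, and 31.6 and 44.8 CPM in the same order of groups. The level of Mpeg1 was 32.3 and 21.8, 19.7 and 19.1, 23.2 and 22.5, and 28.5 and 43.6 CPM. Both were highest in knockout-labelled DMXAA replicate 2. Pld4, a nuclease of the lysosome, was read at 0.914 to 2.18 CPM and passed no test.

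Lyz2, lysozyme M, had the most negative fold change with DMXAA in wild-type islets, with an SE among the largest. It was read at 38.1 and 12.1 CPM in control wild-type islets, 6.45 and 5.67 CPM in treated wild-type islets, 18.9 and 19.5 CPM in control knockout-labelled islets and 14.5 and 35.1 CPM in treated knockout-labelled islets. The wild-type DMXAA libraries were the 2 lowest, but the wild-type DMSO libraries differed from each other by more than the lower of them differed from the DMXAA libraries. The log2 fold change of −2.05 had an SE of 0.69 and an adjusted p of 0.381. Its close copy Lyz1 had 0 to 23 counts in a library.

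General leukocyte genes gave the other calls. Laptm5, a lysosomal protein of blood cells on chr4:130913125-130936141 (plus), was read at 17.1 and 11.4 CPM in control wild-type islets, 7.05 and 8.47 CPM in treated wild-type islets, 23.8 and 23.6 CPM in control knockout-labelled islets and 15.7 and 23.4 CPM in treated knockout-labelled islets. The wild-type DMXAA pair was the lowest and did not overlap with the other groups. The knockout-labelled DMSO libraries were the highest, and these also held the highest lymphocyte sums. The part of lymphocytes in Laptm5 was not tested. With DMSO, Laptm5 was higher under the knockout label by 0.74 on the log2 scale, not past the test (edgeR, SE 0.24, adjusted p = 0.260). Under DMXAA it was higher under the knockout label by 1.33 on the log2 scale (SE 0.25, adjusted p = 0.00967), a call lost on leaving out wild-type DMXAA replicate 1 (adjusted p = 0.147) or knockout-labelled DMXAA replicate 2 (0.118).

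Coro1a, an actin regulator of all leukocytes on chr7:126699773-126707787 (minus), was read at 5.20 and 2.65 CPM in control wild-type islets, 1.56 and 2.18 CPM in treated wild-type islets, 14.1 and 14.4 CPM in control knockout-labelled islets and 3.05 and 3.86 CPM in treated knockout-labelled islets. The knockout-labelled DMSO pair stood far above the other 6 libraries. It was higher than wild-type DMSO by 1.86 on the log2 scale (SE 0.30, adjusted p = 0.0269) and fell by 2.05 with DMXAA (SE 0.31, adjusted p = 0.0147).

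The same 2 libraries held the highest lymphocyte sums, 94.6 and 76.8 CPM. In that list of 18 genes, 9 were tested; those past the test included Cd79a and Ighd, higher under the knockout label with DMSO, and Cd79b, Ms4a1 and Ighd, which fell with DMXAA there. With the log2 of the lymphocyte sum as an added term, chosen after seeing the data, the Coro1a differences were 0.93 (adjusted p = 0.430) and −0.91 (adjusted p = 0.789). That sum was itself highest in the knockout-labelled DMSO libraries, so the term overlaps with both differences and cannot be separated from them. The part of lymphocytes in Coro1a was not tested. The fall with DMXAA was lost on leaving out knockout-labelled DMSO replicate 1 (adjusted p = 0.120) or 2 (0.167) or knockout-labelled DMXAA replicate 1 (0.0913) or 2 (0.0666). The difference under DMSO was lost on leaving out knockout-labelled DMSO replicate 1 (0.223) or 2 (0.269). Exons of Coro1a also overlap Bola2 on the opposite strand, with 2963 counts over all libraries against 819 for Coro1a.

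Ptprc, the leukocyte phosphatase CD45, was read at 4.97 to 10.7 CPM and Cd53, a tetraspanin of blood cells, at 1.83 to 7.33 CPM; neither passed a test. Itgam, the integrin chain CD11b, was read at 0.368 to 0.994 CPM. Its values overlapped between all 4 groups.

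Genes around the members were taken from written lists. In a list of 48 further macrophage genes, of which 39 were tested, DMXAA lowered 3 and raised 0 in wild-type islets, against 0.375% and 1.11% of all genes, with 11 at an unadjusted p under 0.05, against 11.9%, and a median log2 fold change of −0.47. The 3 were Gpnmb, a glycoprotein of lipid-laden macrophages (−1.60, SE 0.30, adjusted p = 0.0121), Csf2rb, the shared receptor chain for GM-CSF (−1.86, SE 0.36, adjusted p = 0.0169), and Slc11a1, a metal transporter of the phagosome (−1.31, SE 0.26, adjusted p = 0.0201). In knockout-labelled islets 0 of 39 passed in edgeR, against 0.375% of all genes in either direction, with 7 at an unadjusted p under 0.05, against 7.3%.

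Gpnmb was read at 13.8 and 7.42 CPM in control wild-type islets, 3.07 and 3.90 CPM in treated wild-type islets, 9.66 and 9.28 CPM in control knockout-labelled islets and 15.2 and 17.0 CPM in treated knockout-labelled islets. The wild-type DMXAA pair was the lowest and the knockout-labelled DMXAA pair the highest. The 3 falls were each lost on leaving out wild-type DMSO replicate 1 or either wild-type DMXAA library, at an adjusted p of at most 0.250, and that of Slc11a1 also without knockout-labelled DMSO replicate 1 (0.0501) or 2 (0.0512). In limma-voom those of Csf2rb (0.0609) and Gpnmb (0.0537) were lost, and in a fit of only the 4 wild-type libraries all 3 were lost, at an adjusted p of at most 0.116.

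Between labels under DMXAA, 6 of the 39 were higher under the knockout label and 0 lower, against 1.02% and 1.37% of all genes, with a median of 0.54. They were Gpnmb (2.21, adjusted p = 0.000657), Slc11a1 (1.55, adjusted p = 0.00447), Cd36, a lipid scavenger receptor that endothelium also makes (1.56, adjusted p = 0.00502), Lgals3, galectin-3 (1.05, adjusted p = 0.00736), Tlr13, an endosomal sensor of bacterial ribosomal RNA (2.55, adjusted p = 0.0229), and Csf2rb (1.53, adjusted p = 0.0496). Gpnmb kept its call in all alternatives, at an adjusted p of at most 0.0150. Slc11a1 lost it without wild-type DMXAA replicate 1 (0.0773), Cd36 without wild-type (0.0791) or knockout-labelled (0.0594) DMXAA replicate 2, and Lgals3 without wild-type DMXAA replicate 1 (0.180) or knockout-labelled DMXAA replicate 2 (0.0803). Tlr13 lost it without wild-type DMXAA replicate 2 or any 1 knockout-labelled library (adjusted p between 0.0523 and 0.204), and Csf2rb without any 1 library other than those of wild-type DMSO (adjusted p between 0.0857 and 0.374).

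Of a list of 10 genes, made of ligands and attractants of macrophages and the receptor Axl, 9 were tested. With DMXAA in wild-type islets 4 rose, against 1.11% of all genes. Csf1, the main ligand of Csf1r, was read at 19.4 and 21.2 CPM in control wild-type islets, 36.5 and 48.5 CPM in treated wild-type islets, 26.0 and 20.2 CPM in control knockout-labelled islets and 30.7 and 30.4 CPM in treated knockout-labelled islets. It rose by 1.06 on the log2 scale (SE 0.18, adjusted p = 0.00685), a call lost on leaving out wild-type DMSO replicate 1 (0.0744) or wild-type DMXAA replicate 2 (0.161). Cx3cl1, fractalkine, rose by 2.17 (SE 0.27, adjusted p = 0.000523), from 6.62 and 12.5 to 47.0 and 39.3 CPM.

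The monocyte attractants Ccl2 and Ccl7 rose by 4.09 (SE 0.33, adjusted p = 8.38e-06) and 3.06 (SE 0.40, adjusted p = 0.00072), with Ccl2 going from 3.31 and 2.46 to 32.6 and 65.2 CPM. In knockout-labelled islets Ccl2 stayed between 3.34 and 4.59 CPM over the 4 libraries, and the difference of the effects was −3.80 (SE 0.49, adjusted p = 0.00128). Under DMXAA, Cx3cl1, Ccl2 and Ccl7 were lower under the knockout label by log2 fold changes of −1.49 (adjusted p = 0.00634), −3.48 (adjusted p = 2.25e-05) and −3.41 (adjusted p = 0.000354); the first was lost on leaving out wild-type (0.0674) or knockout-labelled (0.0581) DMXAA replicate 1. The receptors Csf1r and Cx3cr1 passed no test in any contrast. The other call of this list was Axl, a receptor like Mertk, which rose by 1.04 in knockout-labelled islets (SE 0.18, adjusted p = 0.0298), a call lost on leaving out any 1 of the 4 knockout-labelled libraries (adjusted p between 0.0717 and 0.568).

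Of 16 kinases and adaptors downstream of Fc receptors and Tyrobp, all tested, Inpp5d, the lipid phosphatase SHIP-1 that limits this signal, gave the call that held in most settings. It was read at 15.3 and 15.1 CPM in control wild-type islets, 8.34 and 7.80 CPM in treated wild-type islets, 18.1 and 17.4 CPM in control knockout-labelled islets and 19.1 and 17.3 CPM in treated knockout-labelled islets. The wild-type DMXAA pair stood at 8.34 CPM or less and the other 6 libraries at 15.1 CPM or more. Inpp5d fell by 0.92 with DMXAA in wild-type islets (SE 0.19, adjusted p = 0.0210), a call lost on leaving out wild-type DMSO replicate 1 or any 1 of the wild-type DMXAA and knockout-labelled DMSO libraries (adjusted p between 0.0691 and 0.269). It was higher under the knockout label with DMXAA by 1.17 (SE 0.18, adjusted p = 0.00258), a call kept in all alternatives. Vav1, an exchange factor of blood cells, was also higher there (1.61, SE 0.37, adjusted p = 0.0387), a call lost on leaving out any 1 DMXAA or knockout-labelled DMSO library (adjusted p between 0.0620 and 0.309). Btk, a kinase of B and myeloid cells, fell with DMXAA in knockout-labelled islets (−3.19, SE 0.59, adjusted p = 0.0377), a call lost on leaving out any 1 knockout-labelled or wild-type DMXAA library (adjusted p between 0.0569 and 0.602).

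Endothelial genes differed between the same groups of libraries. In a list of 16 endothelial genes, all tested and none at 0, the summed level was 950 and 1206 CPM in control wild-type islets, 754 and 782 CPM in treated wild-type islets, 897 and 816 CPM in control knockout-labelled islets and 1488 and 1360 CPM in treated knockout-labelled islets. DMXAA lowered 3 of the 16 in wild-type islets, against 0.375% of all genes, and raised 2 in knockout-labelled islets, against 0.164%, and 10 were higher under the knockout label with DMXAA, against 1.02%. The medians were −0.46, 0.66 and 0.75 on the log2 scale. A list of 15 fibroblast genes gave 1 call in these 3 contrasts, between labels under DMXAA. Its medians were −0.60, 0.85 and 0.81, beside −0.51, 0.39 and 0.87 for the members, with 13 of 15 negative in the first contrast and 15 of 15 positive in the second. The part of these cell types in the macrophage differences was not tested. None of 12 beta cell genes passed the test in any contrast, with 3 of 12 at an unadjusted p under 0.05 for DMXAA in wild-type islets.

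**Figure D4:**
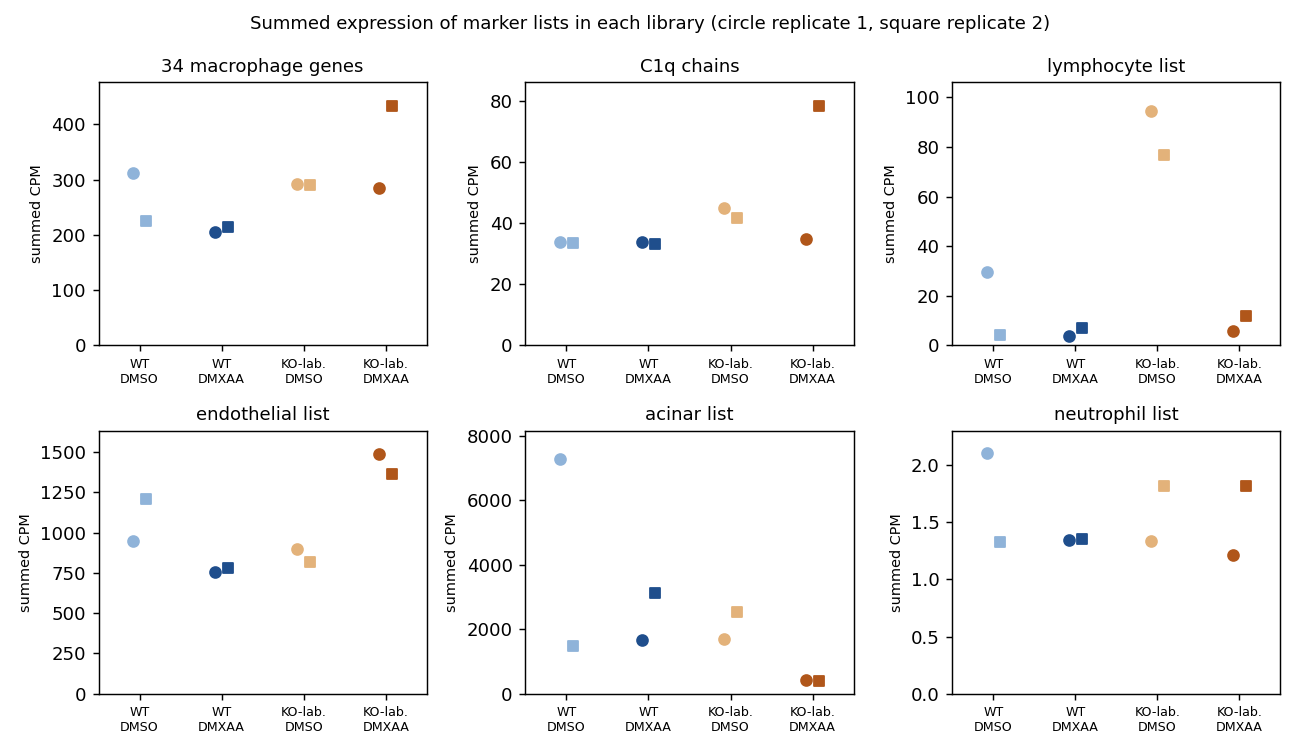
Summed CPM of the 34 macrophage genes, the 3 C1q chains and the lymphocyte, endothelial, acinar and neutrophil lists in each library (circle replicate 1, square replicate 2), by group; each panel has its own axis from 0. The endothelial and macrophage sums are both lowest in wild-type DMXAA libraries, and the lymphocyte sum is highest, at 94.6 and 76.8 CPM, in knockout-labelled DMSO libraries.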

How the data were processed

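Each of the 8 deposited files gives raw read counts by Ensembl gene for 1 library of poly(A)-selected RNA, read as paired ends per the labels' protocols. The submitters' processing notes name HISAT2, HTSeq and build mm10 and no version. Annotation release and strand setting: not given in the sources used here. The files held no row of unassigned reads. Symbols, positions and merged exon lengths were taken from GENCODE M21, which names 54495 of the 54532 identifiers.

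Groups followed the labels, 4 groups of 2. Nothing in the labels says that replicates are separate mice, so the tests measure library-to-library spread, which can be technical; within groups it exceeded sampling noise (chi-square per degree of freedom 6.83 to 53.8). No batch is named in the labels. Counts were fitted with edgeR 4.0.16 in R 4.3.3 (TMM scaling, filterByExpr by group, 1 coefficient per group, robust quasi-likelihood test, 4 residual degrees of freedom), with Benjamini-Hochberg adjustment over all 17055 genes tested; the common biological coefficient of variation was 17.1%. Log2 fold changes carry an SE equal to their size divided by the square root of F. The alternatives used limma 3.58.1, DESeq2 1.42.0, other scalings and filters, and fits without single libraries. The steps were tested on simulated data. Promoter windows came from RefSeq (GRCm38.p6).

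The members and the gene lists were chosen with earlier results of these data known. Every member past an adjusted p of 0.05 is named with all its values, and up to 6 such genes of the macrophage, ligand, signalling and lymphocyte lists; genes of the endothelial, fibroblast, acinar, beta cell and interferon lists are given as counts and sums only. The ratio to Mpeg1 was chosen after the values were seen.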

Additional observations from a re-analysis of the deposited data

Results flagged for a closer look

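The effect of DMXAA differed between wild-type and knockout-labelled islets, by the edgeR test of the difference itself, for 1 member and 4 genes of the other lists. For Itgax the difference, knockout-labelled minus wild-type, was 1.89 on the log2 scale (SE 0.34, adjusted p = 0.0126), from −1.27 in wild-type and 0.61 in knockout-labelled islets. For Slc11a1 it was 1.77 (SE 0.36, adjusted p = 0.0271), for Csf2rb 2.32 (SE 0.50, adjusted p = 0.0394) and for Gpnmb 2.37 (SE 0.40, adjusted p = 0.00860). For Ccl2 it was −3.80 (SE 0.49, adjusted p = 0.00128), with a rise of 4.09 in wild-type islets. All wild-type DMXAA libraries lay below all wild-type DMSO libraries for the first 4 genes and above them for Ccl2.

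The Itgax difference was lost without wild-type DMXAA replicate 1 or either knockout-labelled DMSO library, with an adjusted p of at most 0.118. That of Gpnmb was lost without wild-type DMXAA replicate 1 (0.0538) or knockout-labelled DMSO replicate 1 (0.0572) or 2 (0.0744). The differences for Slc11a1 and Csf2rb were lost without wild-type DMSO replicate 1 or any 1 of the wild-type DMXAA and knockout-labelled DMSO libraries, and also without knockout-labelled DMXAA replicate 2 for Slc11a1 and replicate 1 for Csf2rb, with an adjusted p of at most 0.173 and 0.246. The difference for Ccl2 was kept in each of the 8 fits that leave out 1 library, and was lost on leaving out both wild-type DMSO replicate 1 and knockout-labelled DMXAA replicate 2 (adjusted p = 0.329). In limma-voom the differences for Slc11a1 (adjusted p = 0.0530) and Csf2rb (0.103) were lost.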

How the results depend on the processing

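Of 61 results on single genes, which were chosen for a call or a small p, 0 reversed in any of the alternatives. Over all 33 tested members, the log2 fold change took the other sign in at least 1 alternative for 6 with DMXAA in wild-type islets, among them Clec7a (−1.27 to 0.85), 14 in knockout-labelled islets, among them Cd53 (−1.11 to 1.09) and Lyz2 (−0.38 to 2.27), 12 for the difference of effects, 22 between labels under DMSO and 7 under DMXAA. The median of the members ran from −0.73 to −0.16 with DMXAA in wild-type islets, 0.15 to 0.95 in knockout-labelled islets and 0.57 to 1.10 between labels under DMXAA. Of the 10 calls of members, 1 was kept in every alternative and 9 were lost in at least 1 fit without a single library, in which the group left with 1 library is assumed to vary like the others. Of 19 member values that missed the threshold at an unadjusted p under 0.01, 13 were called in some alternative. Without 1 library, the number of members called changed in every contrast. The number of all genes called changed too, so the former is not read as a result about the members. With DMXAA in wild-type islets, the members' median was −0.73 without wild-type DMSO replicate 2 and −0.16 without replicate 1. Between labels under DMXAA it was 1.10 without knockout-labelled DMXAA replicate 1 and 0.57 without replicate 2. With no filter on low counts, 2 members were called for wild-type DMXAA and 3 for the difference of effects, where DESeq2 called 2. With the stricter filter, 0 were called for DMXAA in knockout-labelled islets and 0 between labels under DMSO, and limma-voom called 0 in the former. The older form of the edgeR fit called 0 between labels under DMSO, as did a fit of only the 4 libraries compared, which also called 0 for wild-type DMXAA.

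Further alternatives were added after seeing the data. Without both wild-type DMSO replicate 1 and knockout-labelled DMXAA replicate 2, the members' median was −0.16 for wild-type DMXAA. It was 0.13 for the difference of effects and 0.24 between labels under DMSO. In that fit the Ccl2 calls were lost for wild-type DMXAA, between labels under DMXAA and for the difference of effects. With the lymphocyte sum as covariate, 0 members were called for wild-type DMXAA, 0 in knockout-labelled islets and 0 between labels under DMSO. For the difference of effects, 3 were called. This sum was highest in both knockout-labelled DMSO libraries, so the covariate overlaps with that group. The number of all genes called ran from 160 to 994 for wild-type DMXAA, 0 to 318 in knockout-labelled islets, 87 to 494 for the difference of effects, 3 to 398 between labels under DMSO and 205 to 674 under DMXAA.

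The summed level by group (wild-type DMSO, wild-type DMXAA, knockout-labelled DMSO and knockout-labelled DMXAA) was 356.3, 277.2, 385.2 and 475.3 CPM with library sizes that leave out hormone and acinar genes. It was 159.6, 130.9, 183.6 and 205.5 CPM without Lyz2, Cd68, Ctss and Lgmn, and 287.5 CPM for knockout-labelled DMSO with DESeq2 size factors. In place of the sum, the median log2(CPM + 0.5) was 2.42, 1.73, 2.41 and 2.47. The wild-type DMXAA value was the lowest of the 4 in each of these. Without Lyz2, Cd68, Ctss and Lgmn, wild-type DMSO replicates 1 and 2 were at 186.4 and 132.8 CPM. The wild-type DMXAA libraries were then at 132.0 and 129.9 CPM, so that difference in means came mostly from wild-type DMSO replicate 1. With the replicate number as a block, 1, 1, 1, 1 and 6 members were called in the 5 contrasts, the same counts as without it. The labels do not pair the replicate numbers, and the deviations of same-numbered libraries correlated at −0.125 to 0.108. With 2 libraries a group, members under 1 CPM had SEs of up to 0.70 on the log2 scale for DMXAA in wild-type islets, which limits the differences that could be detected in them.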
